A study of Mus musculus with 17 samples.

Results

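The secreted mucins, trefoil factors and gastrokines are 10 genes whose products make and protect the mucus layer of epithelia: the gel-forming mucins Muc2, Muc5ac, Muc5b and Muc6, the trefoil peptides Tff1, Tff2 and Tff3, and the gastrokines Gkn1, Gkn2 and Gkn3. They were taken by gene name, and each of the 10 matched 1 of the 43346 genes in the table of read counts. The counts were made from RNA of mouse bile duct, for work on extrahepatic cholangiocarcinoma, which arises in the large ducts that carry bile to the gut. All 17 samples carry the same label, bile duct, and no genotype, strain, treatment, age or sex is given, so no condition could be compared. Their titles, Mouse_eCCA_1 to Mouse_eCCA_17, carry the short name of this cancer, and no label says whether the ducts held tumour. The table names each library by a code and a running number, with 3 libraries in each of 5 codes and 2 in R63494. What a code stands for is not stated in the labels, and no name matched a sample title. Nothing says whether libraries of 1 code came from 1 animal, so p-values measure only the spread between these libraries, part of which may be technical.

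Gel-forming mucins are very large glycoproteins that polymerise and swell into mucus, and each mucous cell type makes its own set of them together with a partner trefoil peptide. In the stomach, surface cells secrete Muc5ac with Tff1, Gkn1 and Gkn2, whereas the neck cells and the glands of the pylorus secrete Muc6 with Tff2, and mouse Gkn3 belongs to these gland cells. In the intestine, goblet cells secrete Muc2 with Tff3. The glands around large bile ducts hold mucous cells too.

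Library totals ran from 16400556 to 24152314 counts. Markers of the duct epithelium were abundant in every library: the 12 cholangiocyte genes together stood at 7120 to 10087 CPM (counts per 1000000 counts of the genes tested, scaled by TMM factors). The 3 libraries of R62850 stood apart, because 11 genes of pancreatic acinar enzymes gave sums of 5966 CPM (R62850_1), 23634 CPM (R62850_2) and 136033 CPM (R62850_3) there and of 40.4 to 157.9 CPM in the other 14. Xist, the RNA of the inactive X chromosome, did not exceed 5.92 CPM in R62850 and R63494 (5 libraries, lowest 0.650 CPM), whereas the other 12 held 668 to 1499 CPM.

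Together the 10 genes took 0.0573% of all counts in the median library. They took least in R63289_3 (0.0324%, 95% Wilson interval 0.0316% to 0.0333%, counting error only) and most in R62850_1 (0.128%, 0.126% to 0.130%). Tff2 alone supplied between 44.0% of these counts in R63500_3 and 91.4% in R63496_2. Set per gene length as RPKM (CPM per kilobase of the table's gene length), the levels spanned several orders of magnitude. The trefoil genes led, with median levels of 586 RPKM for Tff2, 66.0 RPKM for Tff3 and 36.6 RPKM for Tff1. Gkn3 (12.2 RPKM) and Muc6 (9.59 RPKM) followed, then Muc2 (0.309 RPKM), Muc5b (0.266 RPKM), Muc5ac (0.0938 RPKM) and Gkn1 (0.0463 RPKM), and Gkn2 had a median of 0. Tff2 was above Tff3, and Tff3 above Tff1, in 17 of 17 libraries. Muc6 was above Muc2 in all 17 as well. Other neighbours in this order were not separated in every library: Tff1 was above Gkn3 in 13 libraries, Gkn3 above Muc6 in 15, Muc2 above Muc5b in 9 and Muc5ac above Gkn1 in 8. Without the 3 R62850 libraries, an alternative chosen after seeing the data, both of these last pairs changed places: the medians were 0.205 RPKM for Muc2 and 0.243 RPKM for Muc5b, and 0.0941 RPKM for Muc5ac and 0.185 RPKM for Gkn1. Per length, Muc6 stood below Tff2 and Muc2 below Tff3 in each of the 17 libraries, with a median ratio of 83.5 for Tff2 over Muc6 and of 218 for Tff3 over Muc2. Both ratios may be affected by reads lost in mapping to the repeats of mucin genes, which was not tested.

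**Figure D1:**
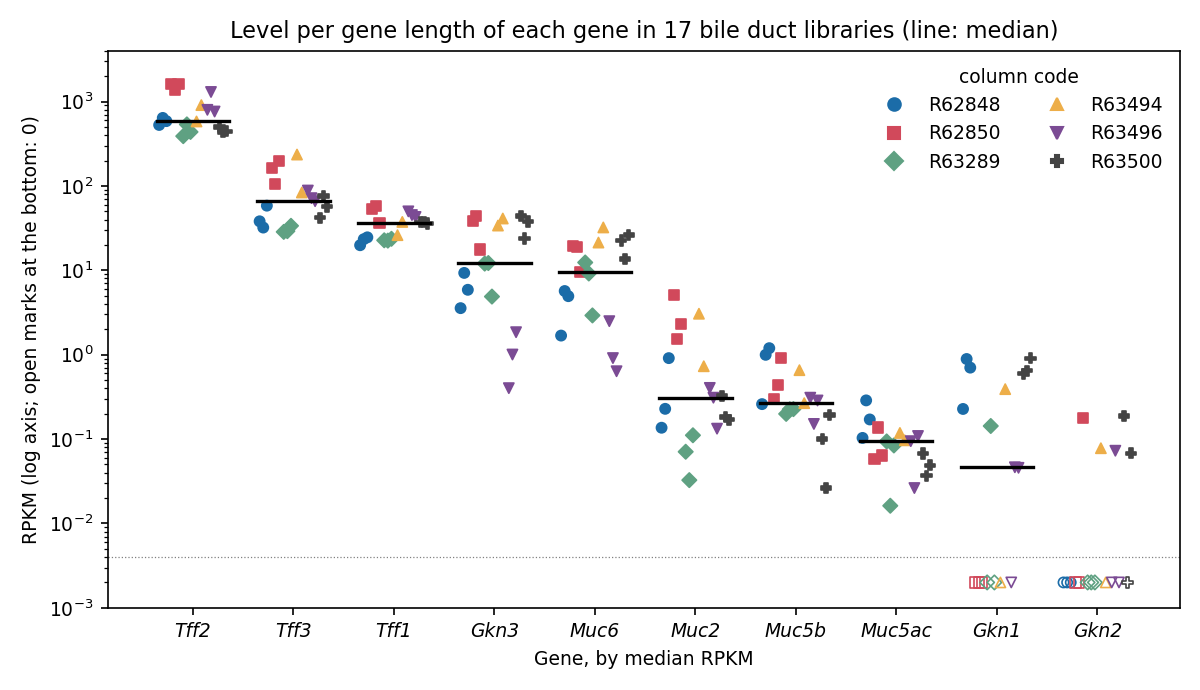
RPKM (log axis) of the 10 genes in each of the 17 libraries, ordered by median, with a black line at the median and marks by column code; open marks below the dotted line are libraries with 0 counts. Tff2 (median 586 RPKM) stands above every other gene, while Gkn1 and Gkn2 have no counts in 7 and 12 libraries.

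Of the 10 genes, 7 had enough counts in most libraries to be tested, by a filter that did not use the codes, and Muc5ac, Gkn1 and Gkn2 did not. Each of the 7 differed between the 6 codes in edgeR's quasi-likelihood F test (adjusted p below 0.05, over all genes tested). Such differences were common: 48.7% of the 15795 genes tested were called, and a call says only that libraries sharing a code resembled each other. The spread of the 7 genes over the libraries was above that of the median gene. The SD of log2 CPM over the libraries was 1.99 for Gkn3, 1.92 for Muc2 and 1.74 for Muc6, against a median of 0.27 over all genes tested, and it was 1.26 for Muc5b, 0.95 for Tff3, 0.69 for Tff2 and 0.49 for Tff1. Differences between codes held 64.3% of this variance for Muc5b and 83.1% to 91.6% for the other 6 genes, against a median of 61.4% over all genes tested. In bulk tissue, fewer cells of a type and less RNA per cell cannot be told apart.

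Tff2, the spasmolytic peptide of gland mucus (ENSMUSG00000024028, mm10 chromosome 17, from 31141049 to 31144282), had 944, 807 and 937 CPM in R62850, and 466, 758 and 445 CPM in R63496. It stood at 339 and 530 CPM in R63494, at 308, 374 and 342 CPM in R62848, at 227, 313 and 255 CPM in R63289 and at 290, 253 and 259 CPM in R63500. Every R62850 library thus lay above all others, and R63289 and R63500 had the lowest means and overlapped. The range was 4.16-fold, and Tff2 differed between codes (quasi-likelihood test, adjusted p = 1.55e-05, and 0.00386 without the R62850 libraries, where 40.9% of the genes tested were called).

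Tff3, the trefoil peptide of goblet cells (chromosome 17, from 31125306 to 31129646), was highest in R63494_1 at 116 CPM, but its sister library R63494_2 had 41.2 CPM. The R62850 libraries had 80.6, 52.2 and 97.3 CPM, and those of R63496 had 43.5, 35.3 and 32.5 CPM. R63500 held 20.7, 37.6 and 28.0 CPM, R62848 18.8, 15.8 and 28.8 CPM, and R63289 14.1, 14.4 and 16.6 CPM. R62850 and R63494_1 were above the rest, and the lowest code, R63289, overlapped with R62848 alone. Tff3 differed between codes (adjusted p = 0.00113, and 0.00516 without R62850).

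Tff1, the trefoil peptide of gastric surface cells (chromosome 17, from 31161396 to 31165053), varied least of the 7, 2.91-fold, from 9.48 CPM in R62848_1 to 27.6 CPM in R62850_2. It averaged 23.6 ± 5.35 CPM in R62850, 22.0 ± 1.73 CPM in R63496, 17.5 ± 0.371 CPM in R63500, 10.96 ± 0.291 CPM in R63289 and 10.8 ± 1.18 CPM in R62848 (SD, n = 3 libraries each), and its values in the 2 R63494 libraries were 12.5 and 17.9 CPM. R62848 and R63289 overlapped and lay below the other 11 libraries (adjusted p = 2.92e-05). The level of Tff1 is uncertain, because Gm15318, an antisense RNA gene of the opposite strand (chromosome 17, from 31152752 to 31163052), overlaps its 3′ part. In GENCODE M21, 221 exonic bases, 31.4% of the exonic bases of Tff1, are shared, and the strand setting of the counting is unknown. The gene length of Tff1 was 478 bases in the count table and 703 in GENCODE M21. The share of the gene as counted may therefore be larger. Gm15318 itself was counted at 28.8 to 82.0 CPM.

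Muc6, the gland mucin (ENSMUSG00000048191, chromosome 7, from 141633456 to 141655319), reached 199.6 and 302 CPM in the R63494 libraries, 211, 127 and 247 CPM in R63500 and 181, 178 and 89.8 CPM in R62850. The R63289 libraries had 116, 85.8 and 27.3 CPM and those of R62848 15.8, 53.2 and 46.2 CPM. In R63496 it stood at 23.4, 8.54 and 5.96 CPM. R63496_2 and R63496_3 lay below all other libraries, and R63496_1 overlapped with R62848 alone. The range was 50.6-fold, and Muc6 differed between codes (quasi-likelihood test, adjusted p = 0.00322, and 0.00580 without R62850).

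Gkn3, the gastrokine of mouse gland cells (ENSMUSG00000030048, chromosome 6, from 87383268 to 87388935), had the same order of codes. It was at 28.6 and 34.7 CPM in R63494, at 37.2, 20.1 and 31.9 CPM in R63500 and at 32.5, 37.2 and 14.9 CPM in R62850. Lower levels were seen in R63289 (10.1, 10.3 and 4.12 CPM) and R62848 (3.01, 7.86 and 4.96 CPM), and R63496 had 0.339, 0.848 and 1.56 CPM, from 6, 15 and 28 counts. All libraries of R63494, R63500 and R62850 lay above those of the other 3 codes, and all of R63496 below (adjusted p = 8.90e-05, and 0.000102 without R62850). The range of 109.9-fold rests on the 6 counts of R63496_1.

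**Figure D2:**
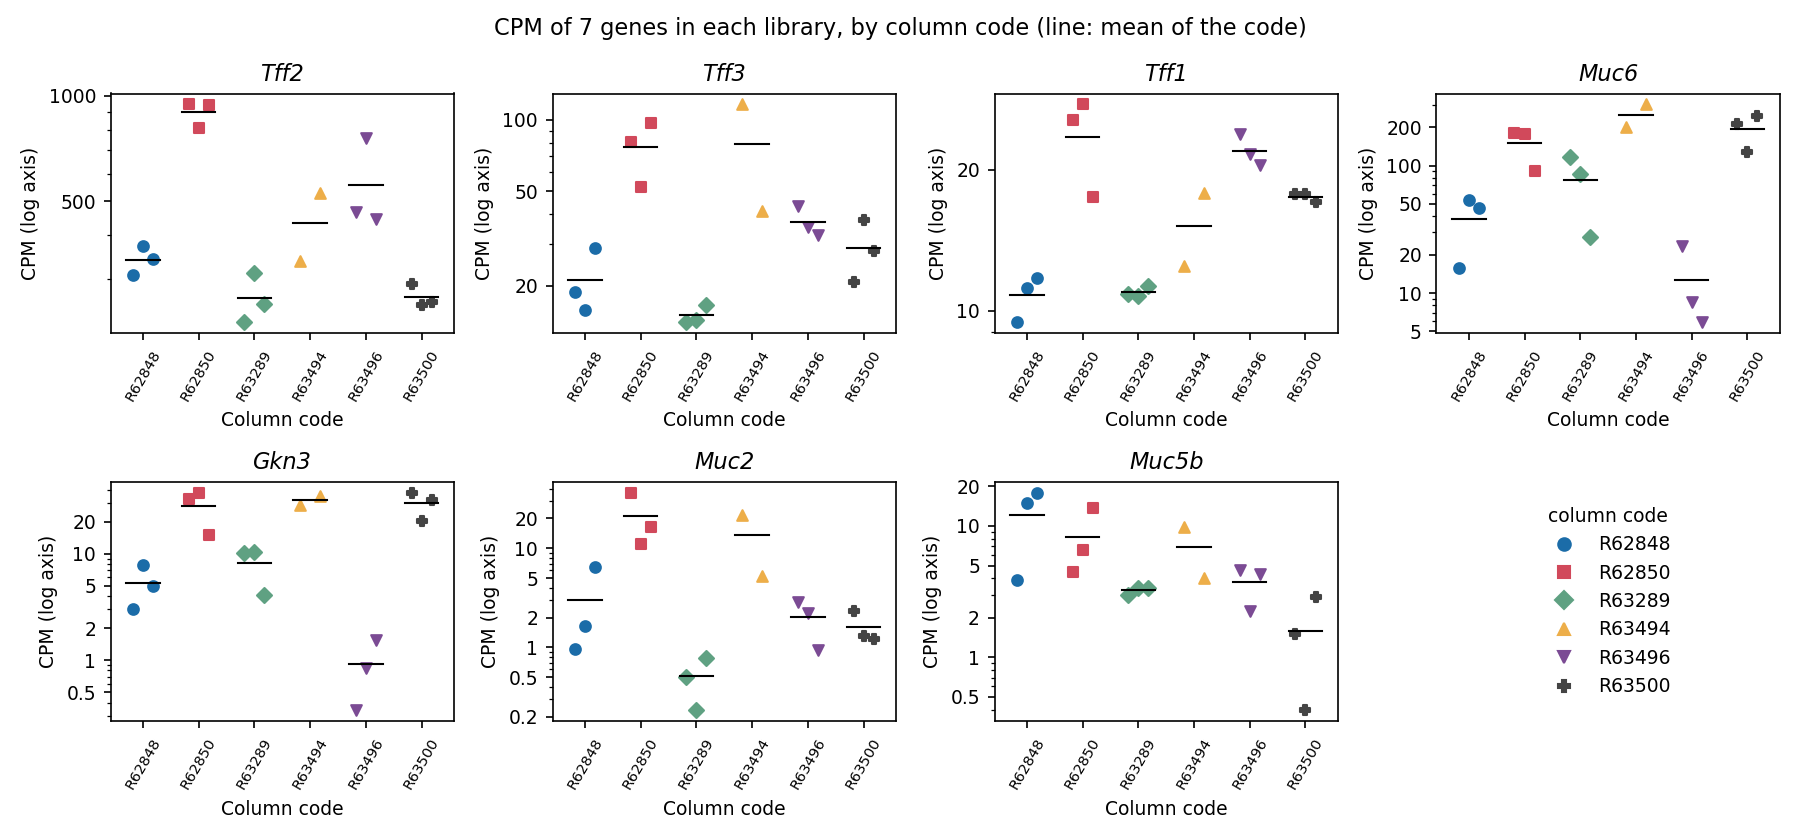
CPM (log axis) of the 7 genes tested in each library, grouped by column code, with a line at the mean of the code. Muc6 and Gkn3 are lowest in the R63496 libraries, where Tff2 (445 to 758 CPM) stands above 4 of the other 5 codes on average.

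Muc6 and Gkn3 lie on different chromosomes and moved together across libraries, so their start regions are printed here, beside that of Muc2, the neighbour of Muc6 that moved differently. Each window holds 250 bases before and 50 after the RefSeq start (RefSeq, GRCm38.p6, the assembly of mm10; 5 of the 10 genes had an entry), read 5′ to 3′ on the gene's strand. Capitals mark the motif of GATA factors, spelled as AGATAA, and equally as AGATAG, as TGATAA, and equally as TGATAG, on either strand. The windows are chr7:141655344-141655643 (minus strand) for Muc6, chr6:87388886-87389185 (minus strand) for Gkn3 and chr7:141690090-141690389 (plus strand) for Muc2.
Muc6: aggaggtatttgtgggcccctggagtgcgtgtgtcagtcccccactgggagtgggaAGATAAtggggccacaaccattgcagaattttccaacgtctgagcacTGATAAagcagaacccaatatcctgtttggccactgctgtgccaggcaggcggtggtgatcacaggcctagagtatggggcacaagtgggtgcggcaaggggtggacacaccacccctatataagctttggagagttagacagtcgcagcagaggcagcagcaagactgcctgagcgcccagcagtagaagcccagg
Gkn3: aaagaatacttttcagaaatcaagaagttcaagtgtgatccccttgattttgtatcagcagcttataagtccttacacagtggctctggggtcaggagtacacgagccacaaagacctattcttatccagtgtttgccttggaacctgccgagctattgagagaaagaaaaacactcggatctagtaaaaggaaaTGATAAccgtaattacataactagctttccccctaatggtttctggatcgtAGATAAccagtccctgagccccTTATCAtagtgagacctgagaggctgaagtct
Muc2: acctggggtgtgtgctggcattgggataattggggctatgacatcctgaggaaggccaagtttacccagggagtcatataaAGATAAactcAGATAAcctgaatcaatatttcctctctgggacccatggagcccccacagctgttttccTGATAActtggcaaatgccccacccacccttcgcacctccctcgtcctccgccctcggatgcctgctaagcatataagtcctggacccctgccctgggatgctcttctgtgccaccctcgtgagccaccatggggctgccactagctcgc
The Muc6 window held 2 of these motifs, at -194 to -189 and -147 to -142 from the start, and those of Gkn3 and Muc2 held 3 each. The windows of Gkn1 and Gkn2, not printed, held 2 each, so the motif was not particular to genes that moved together. Of all 32851 windows of this length, 29.8% held at least 1 such motif, 7.77% at least 2 and 1.76% at least 3. The exact TATA box letters TATAAA were found at -174 to -169 of Muc2, overlapping its first GATA motif by 1 base (13.6% of all windows). They were absent from the Muc6 and Gkn3 windows, and the unprinted Gkn2 window held them at -29 to -24. The variant TATAAG was not searched for, although all 3 printed windows hold it, those of Muc6 and Muc2 close to the start. The search for TATAAA alone therefore neither places nor excludes a TATA box. The forkhead letters, TGTTTAC and equally TGTTTGC, were found in the Gkn3 window, at -120 to -114 (8.48% of all windows). They were absent from the Muc6 and Muc2 windows, and the unprinted Gkn2 window held 1 match. These matches describe letters only.

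Over the 17 libraries, log2 CPM of Muc6 and Gkn3 had a Pearson r of 0.91 and a Spearman rho of 0.92, the highest of the 21 pairs of the 7 genes. Libraries that share a code are not independent, so correlations are given as descriptions. Over the means of the 6 codes r was 0.99, and over deviations from these means it was 0.34. The low value within codes rests on R63496, where Gkn3 had 6 to 28 counts and ran opposite to Muc6: over the 14 libraries without that code, a choice made after seeing the data, r was 0.96 and 0.93 within codes. Without the R62850 libraries the pooled r was 0.90. Per length, Gkn3 was 0.161 times Muc6 in R63496_1 and 0.970 to 2.90 times Muc6 in the other 16 libraries.

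A4gnt, whose enzyme caps Muc6 glycans with N-acetylglucosamine, was among the genes listed for comparison. It was too low to be tested, with 0.930 CPM in the median library and 3.98 CPM in the highest, R62850_2, and had its lowest values, 0 to 0.113 CPM, in R63496 and in 2 of the 3 R62848 libraries. Its r with Muc6 was 0.92 over the 17 libraries and 0.67 within codes.

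Tff2 did not follow Muc6 (r = -0.05, and 0.10 within codes), although gland cells of the stomach secrete both. This pooled r depended on single codes: it was -0.45 without the R62850 libraries. Without R63496, a choice made after seeing the data, it was 0.26. In R63500, Tff2 was 22.1, 31.9 and 16.8 times Muc6 per length. In R63496 this ratio was 319.5, 1424 and 1196, so the 2 codes did not overlap, and the ratio varied 84.7-fold over all libraries. Among the trefoil genes themselves, which lie side by side on chromosome 17, r was 0.68 for Tff1 with Tff2, 0.66 for Tff2 with Tff3 and 0.57 for Tff1 with Tff3. Within codes these values were 0.22, -0.38 and -0.50, and without the R62850 libraries they were 0.56, 0.39 and 0.47.

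**Figure D3:**
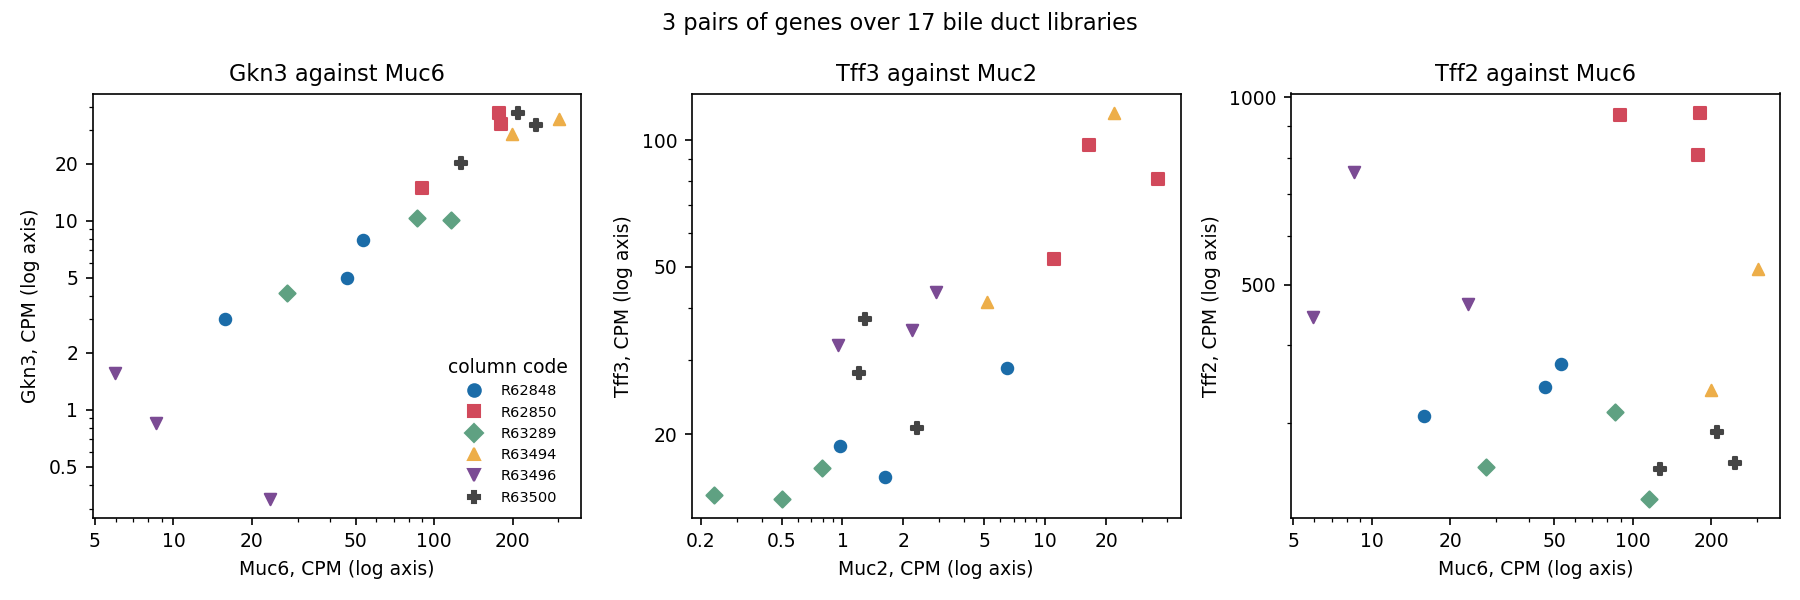
CPM of 3 pairs of genes in the 17 libraries (log axes), 1 mark per library by column code. Gkn3 follows Muc6 (r = 0.91) except within R63496, Tff3 follows Muc2 (r = 0.88), and Tff2 does not follow Muc6 (r = -0.05).

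Muc2, the goblet cell mucin (ENSMUSG00000025515, chromosome 7, from 141690340 to 141754693), starts 35021 bases from Muc6 on the opposite strand. It was at 36.2, 11.02 and 16.5 CPM in R62850 and at 21.8 and 5.20 CPM in R63494. R62848 had 0.971, 1.63 and 6.49 CPM, R63496 2.88, 2.20 and 0.947 CPM, R63500 2.33, 1.30 and 1.21 CPM, and R63289 0.504, 0.232 and 0.791 CPM. R62850 lay above every other code except R63494_1, and R63289 below all others (adjusted p = 0.000884, and 0.00490 without R62850). The 156-fold range rests on 4 counts in R63289_2. Muc2 is tagged as a fragmented locus in GENCODE M21, and reads in the repeats of mucin genes may be lost in mapping, which was not tested.

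Muc2 and Tff3 had an r of 0.88 (rho 0.85) over the libraries, 0.62 within codes and 0.82 without R62850, the second highest of the 21 pairs. With its chromosomal neighbour Muc6, Muc2 had an r of 0.37.

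Beside these results, other markers moved with the same codes, and their part was not tested. R62850 and R63494, the codes with the highest mean Muc2 and Tff3, were those with low Xist, and 4 genes of the Y chromosome (Uty, Kdm5d, Eif2s3y, Ddx3y) had counts in these 5 libraries alone, so sex-linked expression and these codes cannot be told apart. The 10 heat shock genes summed to 6197 to 6607 CPM in R63494 and 3673 to 4260 CPM in R62850, against 1620 to 5289 CPM in the other 4 codes. The enterocyte list, summing to 189.8 to 239.7 CPM in R62850 and 164 to 233 CPM elsewhere, was carried by Vil1, a brush border gene that duct cells also express (median 198 CPM). The other 9 of its 10 genes had medians below 1 CPM. Of these 9, Fabp2 (8.45 CPM), Alpi (9.24 CPM), Sis (2.54 CPM), Cdx2 (3.16 CPM), Apoa1 (4.90 CPM) and Lct (0.564 CPM) were highest in R62850_1 and Fabp1 (3.93 CPM) in R62850_2. Apoa4 was highest in R63496_3 at 9.36 CPM, the mean of Apoa1 was higher in R62848 (2.47 CPM) than in R62850 (2.17 CPM), and Cdx1 had at most 2 counts. Within R62850, Muc6 was lower and Muc5b higher with each step up in the acinar sum, whereas the other 5 genes tested did not follow its order. R62850_3, with the most acinar RNA, had the lowest Gkn3 and Tff1 of its code, the highest Tff3 and the middle value of Muc2 and Tff2. Hepatocyte genes summed to 2.76 to 45.7 CPM. Of 5 Paneth cell genes in the table, Lyz1 (2.54 to 10.2 CPM) and Mmp7 (49.9 to 315 CPM, highest in R62848_3) were tested and called (adjusted p of 0.0179 and 2.77e-07), Defa24 had 29 counts in R62850_1, and Defa17 and Defa22 had none.

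Muc5b, the mucin of airway and gallbladder glands (chromosome 7, from 141839070 to 141873084), did not follow Muc6 (r = -0.06, rho = -0.13). With Muc2 it had an r of 0.45 and a rho of 0.55, and an r of 0.32 within codes. It was at 3.88, 14.9 and 17.9 CPM in R62848 and 4.45, 6.55 and 13.8 CPM in R62850, where it followed the order of the acinar sums, and at 1.502, 0.395 and 2.90 CPM in R63500, below every library of R62848, R62850, R63289 and R63494. The other 3 codes lay between 2.26 and 9.81 CPM. The adjusted p was 0.0222, and the call was lost without R62848_2 (0.0573), without R62848_3 (0.0551), without R63500_1 (0.0587) and without a filter on low counts (0.0630).

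Muc5ac, the surface mucin of the stomach (chromosome 7, from 141788972 to 141819231), had counts in all 17 libraries but only 3 to 57 of them. Its level ran from 0.174 CPM in R63289_2 through a median of 1.01 CPM to 3.09 CPM in R62848_2. Tested without the filter on low counts, it was not called between codes (adjusted p = 0.122).

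Gkn1, a gastrokine of gastric surface cells (chromosome 6, from 87345653 to 87350915), was detected in 10 libraries, with at most 21 counts. All 3 libraries of R62848 (6, 20 and 14 counts) and of R63500 (15, 14 and 21 counts) had some, and R63494_2 had 11. The 3 R62850 libraries had 0, which allows up to 0.162 to 0.172 per 1000000 counts (3 counts, counting error only). In the fit without the filter, Gkn1 differed between codes (adjusted p = 9.73e-05, where 29.1% of 29354 genes were called). Gkn2, whose human product binds TFF1 in gastric mucus (chromosome 6, from 87373365 to 87379494), had 8 counts in all, at most 3 in a library, and 0 in 12 libraries. Its adjusted p without the filter was 0.715.

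The genes whose log2 CPM was most like each of the 7 were sought among the 15788 other genes tested, as a description over 17 libraries with no p. Clca3 (ENSMUSG00000028255, a secreted goblet cell protein named Clca1 in GENCODE M21) was nearest to both Muc2 (r = 0.94, 0.79 within codes) and Tff3 (r = 0.93, 0.85 within codes). It ran from 1.34 to 65.2 CPM and was highest in R63494_1 and the R62850 libraries. Next to Muc2 stood Sptssb, a subunit of the enzyme that starts sphingolipid synthesis (r = 0.87, 0.67 within codes), and Gm26642 (0.85, 0.37 within codes). Next to Tff3 stood the polyamine enzyme gene Odc1 (0.86, 0.51 within codes) and Dnase1l2 (0.86, 0.46 within codes).

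Vsig1, an adhesion protein of gastric epithelium, was nearest to both Gkn3 (r = 0.93, 0.46 within codes) and Muc6 (r = 0.84, -0.03 within codes). It ran from 3.05 CPM in R63496_1 to 22.0 CPM in R63500_1. Gkn3 was then most like Pla2g4a, a phospholipase gene (r = 0.85, 0.77 within codes), and Fam175b (0.85, 0.30 within codes). Muc6 was then most like Napepld (0.83, 0.62 within codes) and the sterol sensor gene Insig1 (0.82, 0.63 within codes). Tff1 was most like its own antisense gene Gm15318 (r = 0.94, 0.76 within codes), which shares genomic sequence with it. Calml4 (0.90, 0.54 within codes) and 9030622O22Rik (0.90, 0.52 within codes) came next. Syngr2 (0.92), Smim6 (0.90) and Rnf114 (0.89) were nearest to Tff2, with 0.18 to 0.40 within codes. Muc5b was nearest to Tmem71 (0.82, 0.84 within codes), 6330409D20Rik (0.82, 0.66 within codes) and Crebl2 (0.81, 0.80 within codes).

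**Figure D4:**
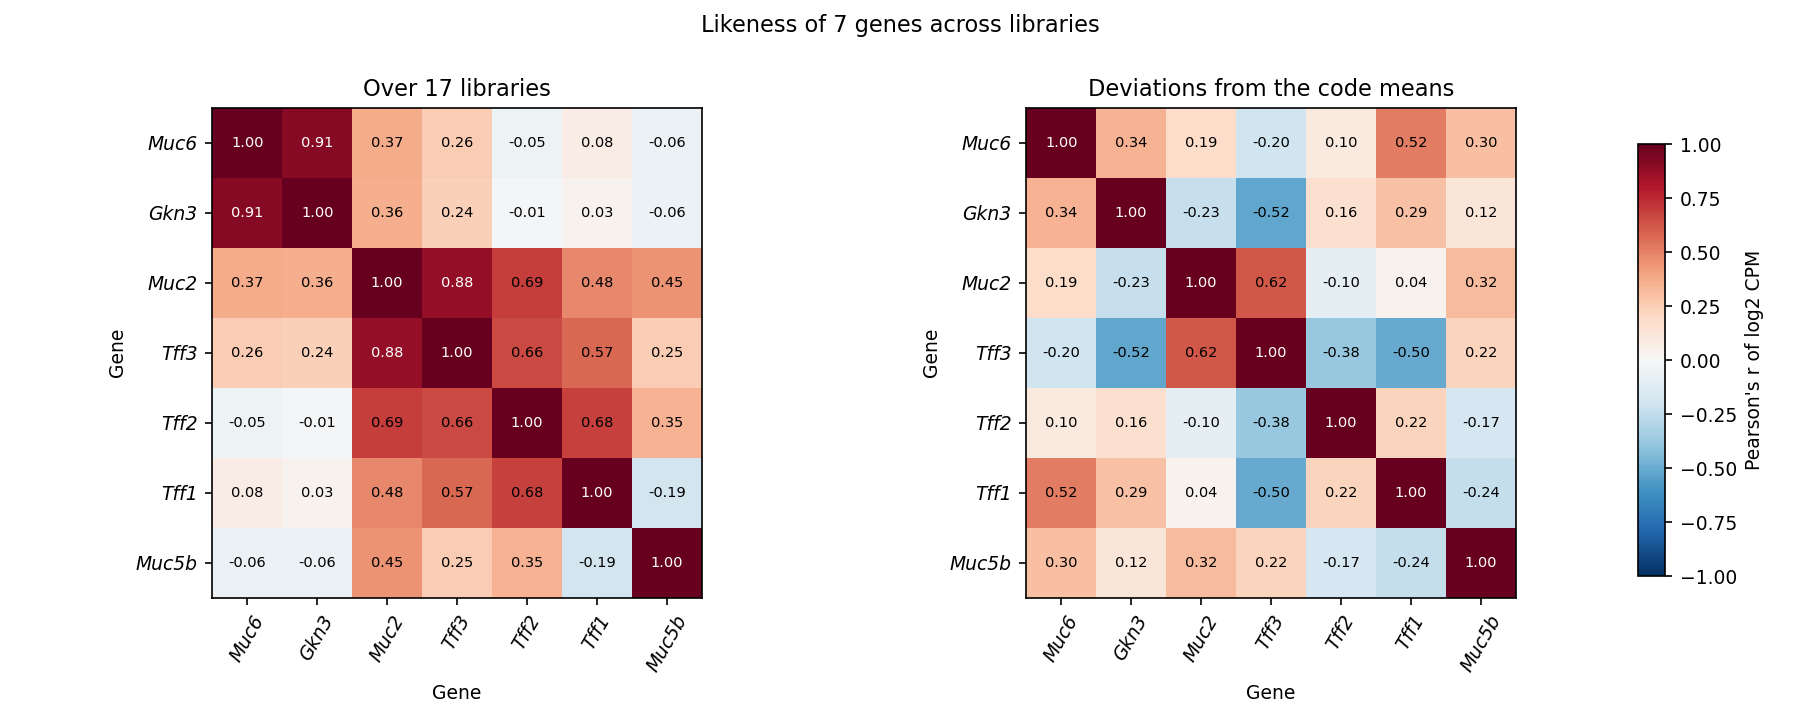
Pearson's r of log2 CPM between the 7 genes tested, over 17 libraries (left) and over deviations from the code means (right), from -1 (blue) to 1 (red). Muc6 with Gkn3 (0.91) and Muc2 with Tff3 (0.88) are the highest pairs on the left, and 0.34 and 0.62 remain on the right.

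The other genes of mucous cells were taken from lists, and their calls between codes are set against the 48.7% of all genes called. Of 10 gastric surface and neck genes found in the table, 7 were tested and 3 called. Ctse, the aspartic protease cathepsin E of surface cells, had the highest median level per length (77.6 RPKM) and stood at 515 to 625 CPM in R63500 and 416 to 465 CPM in R62848, above all other libraries (171 to 289 CPM; adjusted p = 3.12e-10). Aqp5 (32.5 RPKM), a water channel of pyloric glands, Glipr1 (30.8 RPKM) and Anxa10 (15.9 RPKM) were not called (adjusted p of 0.135, 0.584 and 0.0925). Pgc, the pepsinogen C gene of gland cells, was called (adjusted p = 3.53e-06) and ran from 6.61 CPM in R62848_3 to 67.0 CPM in R62850_1. The surface marker Psca had at most 3 counts.

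Of 7 parietal, chief and endocrine cell genes in the table, 2 were tested and both called. Atp4a, a proton pump subunit of acid-secreting cells, was detected in every library, at 1.63 to 12.5 CPM, and was highest in R63289 (adjusted p = 4.81e-06). Ghrl, the ghrelin gene of gastric and duodenal endocrine cells, ran from 1.74 CPM in R62848_2 to 47.9 CPM in R62850_2 (adjusted p = 0.00132). The other 5 were too low to test: Gast had no count in any library, Atp4b at most 3 counts, Kcne2 at most 8, and the intrinsic factor gene Gif and the pepsinogen gene Pga5 at most 13 and 12.

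Of the 7 goblet cell genes listed, 3 were tested and all 3 called. Fcgbp, which crosslinks mucus, was abundant (38.5 RPKM, 258 to 994 CPM) and highest in R63494_1. Spdef, the goblet cell transcription factor, ran from 10.04 to 30.4 CPM (adjusted p = 3.17e-05) and was highest in R63494_2. The listed symbol Clca1, counted among the 3 called, matched another gene in this table, named Clca3a1 in GENCODE M21 (4.33 RPKM). That call is therefore not one of the intended goblet cell gene. Zg16, a granule protein of goblet cells and of pancreatic acinar cells, had 112 CPM in R62850_1, 480.3 CPM in R62850_2 and 2609 CPM in R62850_3, the order of the acinar sums, and at most 0.787 CPM elsewhere. Itln1 was highest in R62850_1 at 52.2 CPM, Ang4 reached 2.48 CPM there, and Retnlb had at most 1 count.

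Among 16 genes of mucin O-glycosylation, 14 were tested and 12 called, and differences between codes held a median of 85.7% of their variance. Gcnt3 (42.9 RPKM), the mucin type core branching enzyme, ran from 113 to 289 CPM and was highest in R63496_1. B3gnt3 (39.7 RPKM), Galnt12 (25.3 RPKM), a starter of O-glycans, and the fucosyltransferase gene Fut2 (24.8 RPKM) were called too (adjusted p of 4.38e-08, 0.00110 and 2.76e-08). Galnt5 and C1galt1c1 were not called.

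In the list of mucus folding and secretion, 10 of 12 genes were tested and 8 called. Vamp8, a granule fusion protein, had the highest level per length (50.7 RPKM; adjusted p = 1.60e-06) and Marcks followed (46.5 RPKM; 0.0122). Agr2, the disulfide isomerase that folds mucins (33.5 RPKM), stood at 117 and 156 CPM in R63494 and at 119, 75.5 and 89.1 CPM in R63500, the 2 codes with the highest mean Muc6, and at 23.0 to 83.2 CPM elsewhere (adjusted p = 0.000312). Its r with Muc6 was 0.71, and 0.63 within codes. Creb3l1 (26.6 RPKM) was called as well, whereas the airway gland gene Bpifb1 had a maximum of 0.169 CPM.

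Of 8 transcription factor genes of mucous cells, 7 were tested and 4 called. Xbp1 (248.8 RPKM), the factor of secretory cells, and Klf4 (13.3 RPKM) were not called, with adjusted p of 0.164 and 0.0825. Foxa2 (31.2 RPKM) was called, within 63.1 to 91.8 CPM (adjusted p = 0.0110), and so was Spdef (8.01 RPKM). Bhlha15 was called too (adjusted p = 0.00011) and was highest, at 81.4 CPM, in R62850_3, the library with the most acinar RNA. Its mean was 51.6 CPM in R62850 and 33.9 CPM in R63494, and lower in each remaining code. Whether acinar RNA carried this call was not tested, so it cannot be read as variation of mucous cells. The goblet cell fate gene Atoh1 had a median of 0 and a maximum of 1.69 CPM, in R63494_1. Of the mucins outside the 10 genes, the membrane mucins Muc1 (464 RPKM) and Muc13 (131 RPKM) stood above all 4 gel-forming mucins by median level per length, and the salivary gel-forming mucin Muc19 had at most 5 counts.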

How the data were processed

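The deposited table holds the authors' raw read counts per gene for 17 bile duct libraries. Per the submitters' processing notes, which give no role or order, the build was mm10 and the tools were edgeR 3.40.2, featureCounts and STAR 2.6.1c. Strand setting, annotation release and the treatment of multi-mapping reads were not found in the labels. The table's 17 other per-sample columns were not used. Column names match no sample title and are tied to the group only. Genes were kept with filterByExpr and an intercept-only design, scaled with TMM and expressed as CPM or log2 CPM (prior count 2). The code in the column name was tested with edgeR 4.0.16 (R 4.3.3): quasi-likelihood F test, robust prior, Benjamini-Hochberg adjustment over 15795 genes, tested on simulated counts first. DESeq2 1.42.0 was an alternative. Members and lists were chosen with earlier results of these data known. Named are the members, for each tested member the 3 most correlated other genes, and up to 4 genes per list by median RPKM; further list genes were named after their values were seen. Sequences are RefSeq, GRCm38.p6. Intervals and floors cover counting error only; PCR copies without identifiers do not count molecules independently.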

Additional observations from a re-analysis of the deposited data

How the results depend on the processing

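The 7 tested genes that differed between codes stayed 7 with RLE size factors, library totals only, a prior that was not robust, DESeq2 and without the R62850 libraries, and numbered 6 to 7 when each library was left out. Without the filter on low counts they were again 7 of the 10 genes, with Gkn1 called and Muc5b not. The calls over all genes numbered 7692, and 6769 to 8047 with a library left out, 6465 without R62850 and 8728 with DESeq2. Muc5b was the one call lost (adjusted p of 0.0573, 0.0551 and 0.0587 without R62848_2, R62848_3 and R63500_1, and 0.0630 without the filter). Median levels moved by less than 1 SD of the libraries under the alternatives run. That of Gkn1, 0.0565 CPM, ran from 0.0561 to 0.115 CPM with a library left out. The value of 0.115 CPM arose on leaving out any of the libraries without Gkn1 counts, whether of R62850 or another code. Without all 3 R62850 libraries the median of Gkn1 was 0.226 CPM, and that of Muc2, 2.20 CPM over all libraries, was 1.46 CPM. Of the 10 ranks by level, 4 changed without R62850, and 6 without gene length; the order by deposited FPKM was not run. No paired analysis was possible because the labels give 1 group. Depth limits Muc5ac, Gkn1 and Gkn2, and Gkn3 in R63496.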

Other observations

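Ghrl, the ghrelin gene, stood at 32.2, 47.9 and 9.81 CPM in R62850, at 22.9, 7.45 and 32.01 CPM in R63500 and at 5.08 and 14.9 CPM in R63494, and at 1.74 to 5.19 CPM in the other 9 libraries. Its r over the 17 libraries was 0.67 with Tff1, 0.65 with Gkn3 and 0.64 with Muc6. Within codes these values were 0.62, 0.23 and 0.36.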
